A study of Oryctolagus cuniculus with 54 samples.

Results

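Term birth was read here as the difference between the lungs of naturally delivered newborn rabbits at day 31 (T31) and those of fetuses delivered by Caesarean section at day 29 of gestation (F29), within 1 sequencing run. The contrast held 6 of the 54 libraries of the series: the 3 T31 animals of run 1, numbered 1, 10 and 15, and the 3 F29 animals, numbered 2, 7 and 11. All were New Zealand White rabbits, and RNA came from the homogenate of the whole right lung. The series followed normal lung development from the fetus to the young rabbit and added preterm pups. The study describes F29 lungs as taken straight after the section and T31 lungs as taken straight after birth, with each pup from a different dam. T31 and F29 therefore differed in age by 2 days, in mode of delivery, in anaesthesia of the dam and in whether the pup had breathed, and the parts of these in any difference cannot be told apart. The newborn T31 animals of run 3, numbered 4, 11 and 18, were not in the contrast and served as a separate reading against the F28 animals of run 3, numbered 2 and 7, which were delivered by section at day 28.

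Before birth the airspaces of the lung are filled with fluid that the epithelium secretes, and little blood passes through the pulmonary vessels. At birth the epithelium turns from secreting to absorbing fluid, surfactant from type II cells lowers the surface tension of the airspaces, the pulmonary vessels open, and the tissue meets a higher oxygen tension. Hormonal surges around labour, of glucocorticoid and catecholamine among others, accompany this change.

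The 6 libraries, made with a kit that reads the 3′ end of polyadenylated transcripts, held between 6205938 and 6742828 counts, with a median of 6566134. The 54 libraries ranged from 5771693 to 8073755. The table listed 29587 genes by Ensembl identifier alone, and 0 of them matched the gene table used here, so genes appear by identifier and the tissue label was not checked against marker genes. Of these, 14600 reached 0.5 CPM (counts scaled to a common library size) in at least 3 libraries of run 1 and were tested. A gene was called when it changed more than 2-fold with an adjusted p of at most 0.05 in edgeR's quasi-likelihood test. In whole lung, fewer cells of a type and less RNA per cell cannot be told apart.

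Few genes passed the test between all 3 newborns and the F29 fetuses. Of 14600 genes, 5 were called higher at T31 (0.0342%) and 1 lower (0.00685%), 6 in all (0.0411%). At an unadjusted p under 0.05 the number was 2099 (14.4%). The CPM of the 3 newborns lay above all 3 fetuses in 1218 genes (8.34%) and below them in 1245 (8.53%). The number of calls changed whichever animal was left out, and it rose only without T31 animal 15. Leaving out T31 animal 15 gave 232 genes called higher (1.59%) and 147 lower (1.01%), 379 of 14549 in all (2.6%), whereas leaving out any of the other 5 animals gave between 0 and 2. Leaving out each animal in turn was planned, but animal 15 was singled out after these counts were seen. All 6 genes called with 3 newborns were also called without animal 15. On all 6 animals DESeq2 called 138 genes and limma-voom 3.

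**Figure D1:**
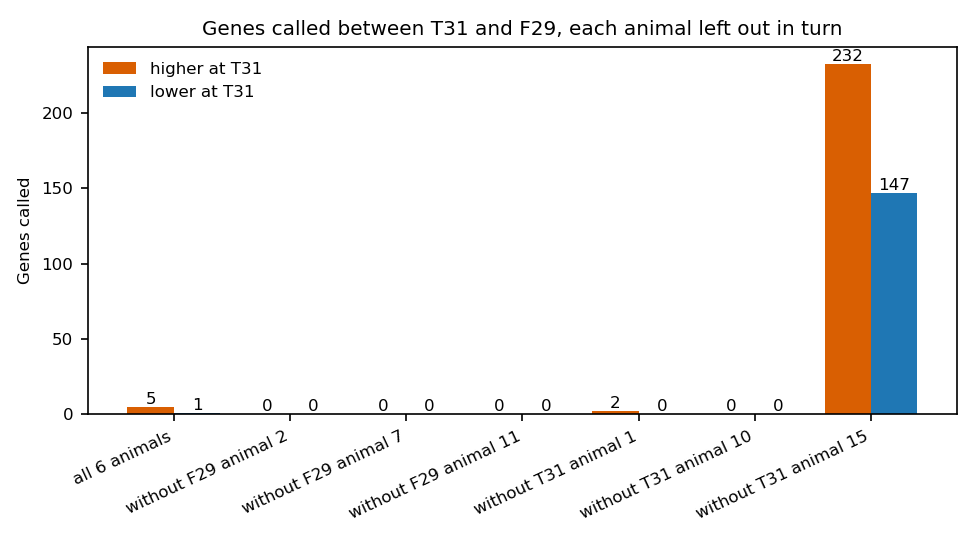
Number of genes called higher (orange) and lower (blue) at T31 than at F29 in run 1, with all 6 animals and with each animal left out in turn. Without T31 animal 15 the calls were 232 higher and 147 lower. With all animals they were 5 and 1.

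ENSOCUG00000006029 rose most among the called genes. Its level was 1.42, 1.41 and 1.68 CPM in the 3 F29 animals and 29.5, 21 and 12.7 CPM in T31 animals 1, 10 and 15. All 3 newborns lay above the 3 F29 fetuses, and animal 15 was the lowest newborn. The log2 fold change was 3.79 ± 0.53 (SE, n = 3 and 3, adjusted p = 0.017, edgeR). This SE follows from the test statistic of the fit of all 18 run 1 libraries, not from T31 and F29 alone. Fitting only the 6 libraries gave the same fold change with an adjusted p of 0.0839 (edgeR), which was not called. At T35, 4 days after term birth, the 3 animals held 2.88, 9.48 and 5.86 CPM, below every newborn of run 1 and above every F29 fetus. In run 3, T31 animals 4 and 11 stood at 15.8 and 15.4 CPM, animal 18 at 2.16 CPM, and the F28 fetuses at 1.75 and 0.438 CPM. Earlier fetuses of run 3 were not all low: of 4 animals at F20, 1 held 45.6 CPM and the others at most 0.268 CPM, and of 4 at F23, 1 held 6.62 CPM and the others at most 1.1 CPM. The T31 to F28 difference in run 3 was 3.33 ± 1.86 on the log2 scale and was not called (adjusted p = 0.273, edgeR).

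ENSOCUG00000002271 was the other named gene that rose, and here the newborns fell apart. The F29 animals held 156, 151 and 185 CPM, T31 animals 1 and 10 held 571 and 684 CPM, and T31 animal 15 held 222 CPM. Animal 15 was thus above the fetuses but nearer to them than to the other newborns. The log2 fold change was 1.59 ± 0.26 (adjusted p = 0.0379, edgeR), and 1.94 ± 0.14 without animal 15 (adjusted p = 3.05e-06, edgeR). Animal 15 was singled out after the counts of calls were seen. It stood apart from the other newborns here, so the smaller SE and p follow in large part from leaving it out. Over the alternatives run, the gene's adjusted p by edgeR, DESeq2 and limma-voom ranged from 3.05e-06, without animal 15, to 0.289. Run 3 held a like spread: T31 animals 4 and 11 were at 638 and 661 CPM, animal 18 at 194 CPM, and the F28 fetuses at 150 and 160 CPM. There the gene was called, with a log2 fold change of 1.69 ± 0.36 (adjusted p = 0.00444, edgeR). At T35 the levels were 512, 618 and 555 CPM in run 1, so all 3 animals stood far above the F29 fetuses by then.

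ENSOCUG00000031285 was the single gene called lower. It held 14.7, 13.3 and 8.57 CPM in the F29 animals and 0.912, 2.49 and 2.99 CPM in the newborns, with no overlap. The log2 fold change was −2.51 ± 0.41 (adjusted p = 0.0379, edgeR). The level stayed low at T35, at 3.03, 1.66 and 1.35 CPM. In run 3 the newborns held 2.14, 3.45 and 3.46 CPM and the F28 fetuses 4.51 and 11 CPM. The groups did not overlap there either, but the difference of −1.36 ± 0.58 on the log2 scale was not called (adjusted p = 0.137, edgeR). The calls of ENSOCUG00000006029, ENSOCUG00000002271 and ENSOCUG00000031285 were each lost when any of F29 animals 2, 7 and 11 or T31 animals 1 and 10 was left out, with edgeR adjusted p between 0.0752 and 0.167, and were kept without animal 15.

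A further gene was picked after its values were seen. It had to be called lower without animal 15 and in run 3, but not with all 3 newborns. It also needed an F29 mean of at least 5 CPM and all 3 newborns below all 3 F29 animals. Among such genes it had the largest fall without animal 15. Animal 15 met the rule narrowly, at 5.19 CPM against an F29 low of 5.2 CPM. ENSOCUG00000003917 held 6.01, 6.91 and 5.2 CPM in the F29 animals, 1.37 and 1.09 CPM in T31 animals 1 and 10, and 5.19 CPM in animal 15. With all 3 newborns the log2 fold change was −1.24 ± 0.41 and was not called (adjusted p = 0.195, edgeR). In run 3 all 3 newborns were low, at 1.42, 1.05 and 0.577 CPM against 5.24 and 6.87 CPM at F28. The level fell before birth as well: the run 1 means were 17.2 CPM at F25, 10.1 at F27, 8.3 at F28 and 6.04 at F29. At T35 the gene held 11, 10.2 and 6.46 CPM in run 1, and at T37 in run 3 it held between 4.74 and 14.6 CPM. The preterm animal of run 3, taken 7 days after delivery, held 1.64 CPM. Its low level in 5 of the 6 newborns follows in large part from the pick. At T35 and T37 it was near or above the F29 level.

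**Figure D2:**
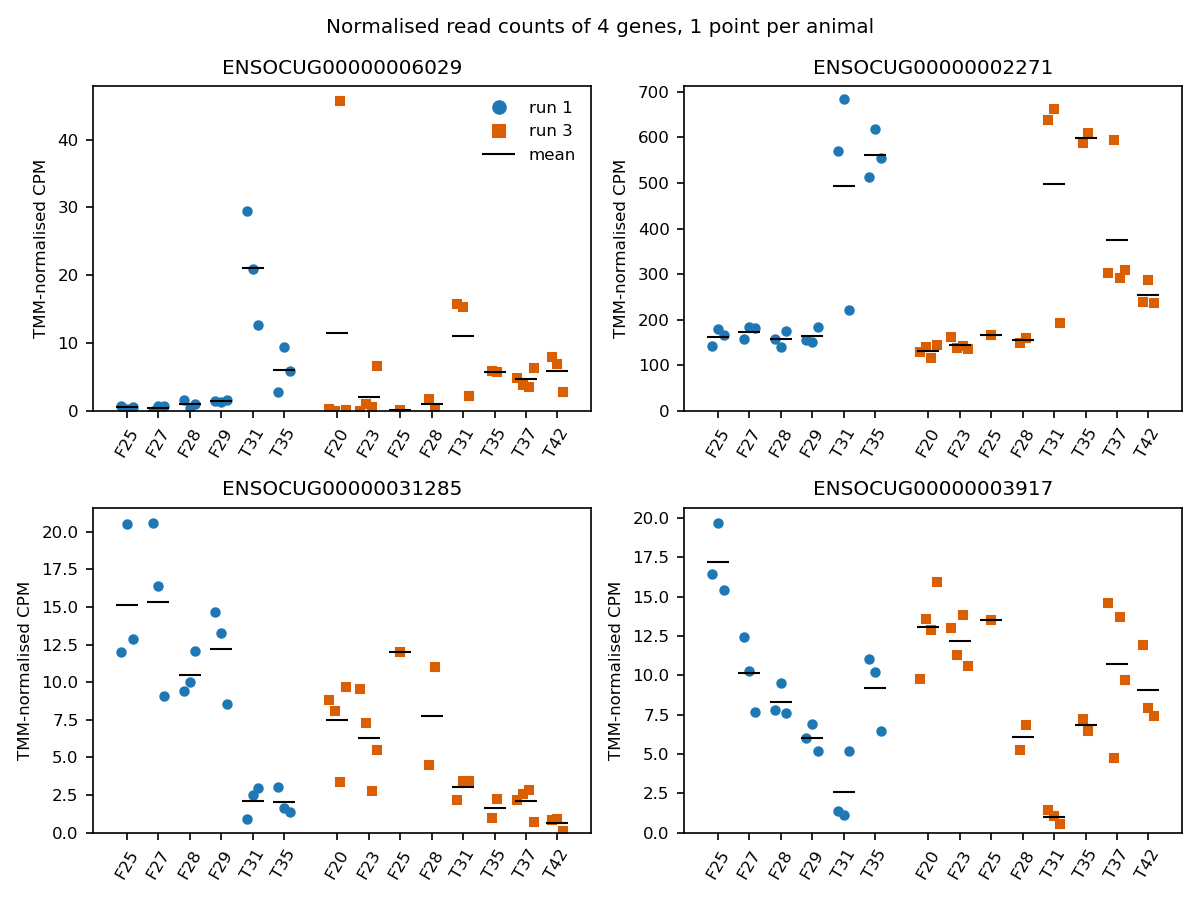
TMM-normalized CPM of the 4 named genes, 1 point per animal (circles, run 1, and squares, run 3) with the group mean as a line, over fetal (F) and term (T) time points. For ENSOCUG00000006029, 1 animal at F20 (45.6 CPM) stands above every newborn. In ENSOCUG00000002271, T31 animals 15 (222 CPM) and 18 (194 CPM) stand near the fetuses while the other 4 newborns lie between 571 and 684 CPM.

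The remaining 3 called genes were all higher at T31. The first held 209, 244 and 96.3 CPM in animals 1, 10 and 15, against 58.5 to 74.3 CPM at F29. Its log2 fold change was 1.41 ± 0.24 (adjusted p = 0.0425, edgeR), and it was also called in run 3, at 1.17 (adjusted p = 0.00305, edgeR). The second held 77.8, 85.8 and 97 CPM against 34.1 to 42 CPM, and here animal 15 was the highest newborn. Its log2 fold change was 1.23 ± 0.18 (adjusted p = 0.017, edgeR), with 0.65 in run 3 (adjusted p = 0.182, edgeR). The third was abundant, with 2150, 2500 and 1510 CPM against 873 to 1120 CPM, and rose by 1.03 ± 0.17 (adjusted p = 0.0379, edgeR). In run 3 its difference was 0.05 (adjusted p = 0.872, edgeR). All 6 called genes had the same direction in run 3, and 2 of them were called there.

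The distance between libraries placed animal 15 next to the F29 fetuses. It was taken as the root mean square of the log2 CPM difference over the 14600 genes. F29 animals lay 0.634 to 0.682 from one another. T31 animal 15 lay 0.679 to 0.716 from them, which overlaps that range, animal 10 lay 0.779 to 0.787 and animal 1 lay 0.827 to 0.837. The newborns differed among themselves by as much: animals 1 and 10 were 0.715 apart, 10 and 15 were 0.753 apart, and 1 and 15 were 0.829 apart. Animals 1 and 15 were therefore farther from each other than animal 15 was from any F29 animal, or from any F28 animal of run 1 (0.728 to 0.770). From the F25 animals it lay 0.999 to 1.06. The totals of the 3 newborn libraries (6742828, 6591795 and 6514089 counts for animals 1, 10 and 15) were close to one another. In run 3, T31 animals were 0.799 to 0.953 apart and 0.875 to 0.967 from the F28 fetuses, with animal 18 the nearest to F28 by mean distance (0.887, against 0.900 and 0.954).

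**Figure D3:**
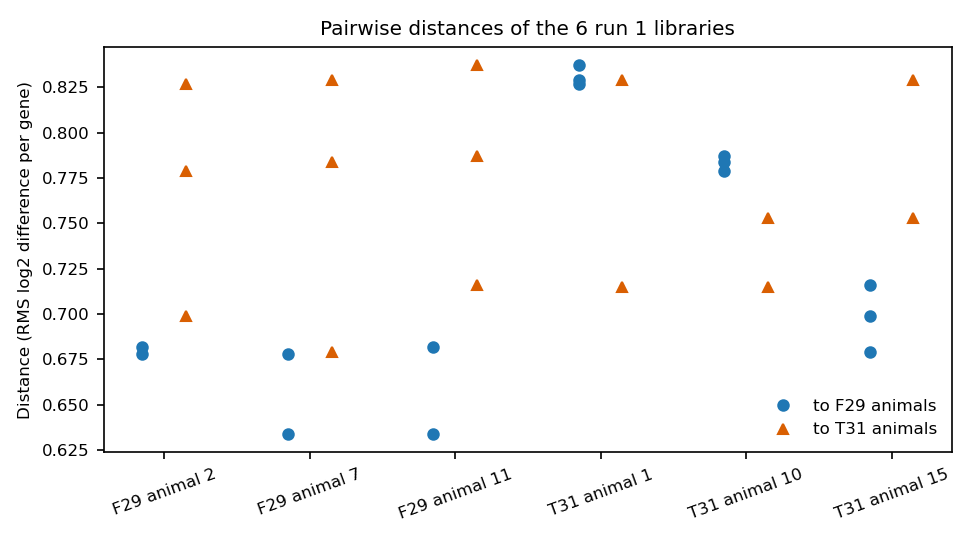
Distance of each of the 6 libraries of run 1 to the F29 animals (circles) and to the T31 animals (triangles), as the root mean square log2 CPM difference per gene (the axis does not start at 0). The circles of T31 animal 15 (0.679 to 0.716) reach into the range among F29 animals (0.634 to 0.682), and those of T31 animals 1 and 10 do not.

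By the SD per gene, the spread between newborns was larger than between the F28 or F29 fetuses. The SD was not computed for F25 and F27. By distance, pairs of F25 animals, at 0.643 to 0.763, overlapped pairs of newborns, at 0.715 to 0.829. Over the 9226 genes with a mean of at least 5 CPM, the median SD of log2 CPM was 0.26 at T31, 0.158 at F29, 0.167 at F28 and 0.207 at T35. The SD was larger at T31 than at F29 in 6579 genes (71.3%). Among pairs of newborns the median SD was 0.192 for animals 1 and 10, 0.198 for animals 10 and 15 and 0.259 for animals 1 and 15. Each of these rests on a pair, so it is not on the same scale as the SDs from 3 animals. Counted one animal at a time, 247 of the 9226 genes lay more than 2-fold above all 3 F29 animals in newborn 1, 146 in newborn 10 and 39 in newborn 15. Those more than 2-fold below numbered 219, 135 and 57. For scale, each F29 animal set against the other two had 27 to 45 genes above and 37 to 81 below. Against the same pairs of fetuses, newborn 15 had 57 to 85 above and 76 to 109 below.

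The genes called without animal 15 came from all levels of expression. Of 5323 tested genes under 5 CPM, 44 were called higher and 34 lower. Between 5 and 20 CPM the numbers were 64 and 57 of 3057, between 20 and 100 CPM 96 and 46 of 3990, and over 100 CPM 28 and 10 of 2179. The share called higher was greatest between 20 and 100 CPM (2.41%), and the share called lower between 5 and 20 CPM (1.86%).

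The newborns of run 3 were not in the fit that called those genes. Animal 15 was not in it either, but it was left out because of its effect on the number of calls, and the F29 animals that it is read against chose the genes, so its values here are a description. In animal 15 the 232 genes called higher had a median log2 difference of 0.21 from the F29 mean, and 155 of them (66.8%) lay above it, against 50.9% of all genes tested. The 147 genes called lower had a median of −0.20, and 104 (70.7%) lay below, against 49.1%. In that direction, 11.2% of the first list and 8.16% of the second passed 2-fold. Of the 231 higher genes also tested in run 3, 155 lay above the F29 mean in animal 15, and 109 to 152 did so in the F28 fetuses of run 1, with medians of −0.02 to 0.15. Of the 146 lower genes, 103 lay below it in animal 15 and 76 to 83 in the F28 fetuses. Of all 13924 genes tested in both runs, 6988 to 7242 lay above it in these F28 fetuses and 6682 to 6936 below. In the higher genes animal 15 was thus hardly apart from F28 animal 9 (152 genes).

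The newborns of run 3 were read against the F28 animals of that run, which share no library or animal with the contrast. However, F28 animals 2 and 7 also had run 1 libraries, which entered the pooled spread of the fit that called the genes. Over the 231 higher genes that were tested in run 3, T31 animal 4 had a median log2 difference of 1.33, animal 11 of 0.56 and animal 18 of 0.12. Over the 146 lower genes the medians were −1.28, −0.87 and −0.20. Animal 4 was above the F28 mean in 96.1% of the higher genes and below it in 91.1% of the lower genes, animal 11 in 83.1% and 81.5%, and animal 18 in 55.4% and 61%. Over all genes tested in run 3, the shares above and below were 48.8% and 50.1% in animal 4 and 50.2% and 48.7% in animal 11. In animal 18 they were 49.5% and 49.3%. The 6 newborns thus formed a range, with animals 1, 10 and 4 at one end, animal 11 between, and animals 15 and 18 near the fetal level. The places of animals 1, 10 and 15 follow in large part from the choice of the genes. The fetal base also differed, F29 in run 1 and F28 in run 3. Over all genes animal 18 was not close to the fetuses: its mean distance to F28 was 0.887, and the F28 animals of run 3 were 0.673 apart.

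**Figure D4:**
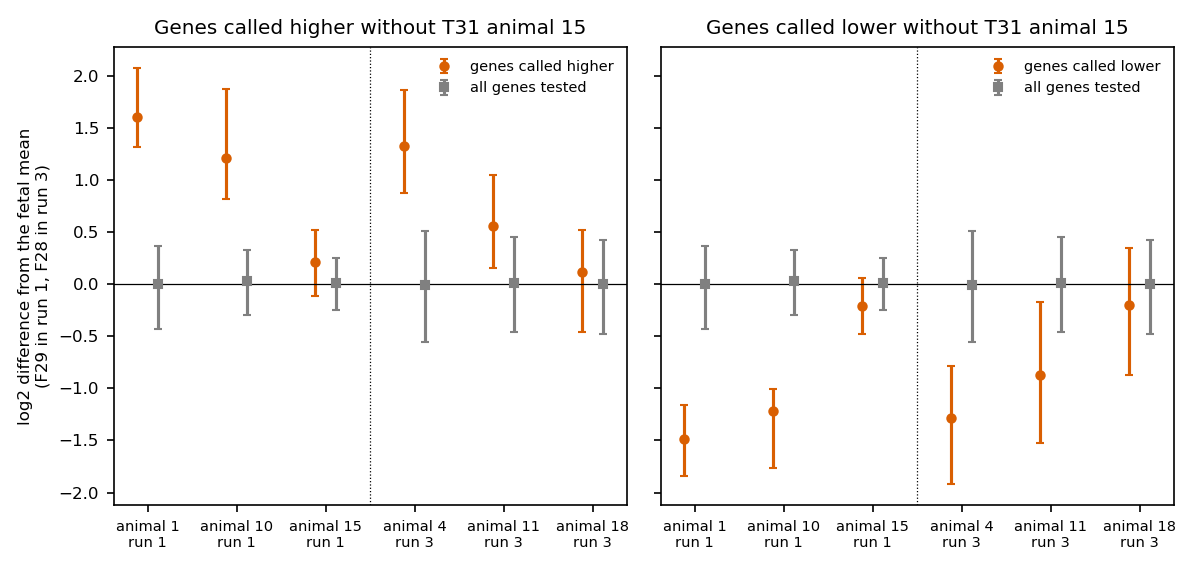
Log2 difference of each T31 animal from the fetal mean of its run (F29 in run 1, F28 in run 3), as median and quartiles (bars) over the genes called higher (left) or lower (right) without T31 animal 15, with all genes tested in grey. Animals 1 and 10 chose the genes. Of the others, animal 4 has medians of 1.33 and −1.28 and animal 18 of 0.12 and −0.20.

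At T35 the same genes still stood apart from the F29 mean. The F29 animals helped to choose these genes, so the values relative to F29 are a description. In run 1 the 3 T35 animals had medians of 0.53, 0.68 and 0.79 over the 231 higher genes and of −0.61, −0.61 and −0.62 over the 146 lower genes, relative to the F29 mean. Each T35 animal was above F29 in 183 to 210 of the 231 genes and below it in 120 to 126 of the 146. Of all 13924 genes tested in both runs, 7120 to 7337 were above and 6587 to 6804 below. In run 3, relative to F28, T35 animals 6 and 11 had medians of 0.57 and 0.40 over the higher genes. Over the lower genes they had −0.38 and −0.48. At T37 in run 3 the medians over the higher genes were 0.39 to 0.58 and at T42 0.38 to 0.46, relative to F28. Over the lower genes they were −0.56 to −0.36 at T37 and −0.56 to −0.47 at T42. Before birth the medians were near 0: at F25, F27 and F28 of run 1 the medians lay between −0.02 and 0.15 for the higher genes and between −0.08 and 0.12 for the lower genes.

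The reverse reading took the genes from run 3. T31 against F28 there gave 264 genes called higher (1.78%) and 463 lower (3.12%), 727 of 14817 (4.91%). That contrast spans 3 days and starts from F28, so its calls are not the same quantity as those of F29 to T31. Fitting only its 5 libraries gave 53 calls, and leaving out T31 animal 18 gave 1106. Of the 261 higher genes that were tested in run 1, 205 (78.5%) were also higher at T31 than at F29, with a median log2 fold change of 0.37. Of the 459 lower genes, 357 (77.8%) were also lower, with a median of −0.29. With the genes called by other fits of run 3, these shares ran from 71.4% to 85.7% and from 69.7% to 82.6%. Both were lowest without T31 animal 4. Over all 14600 genes the median was 0.01, with 51.3% higher and 48.6% lower. By animal, the medians of the higher genes were 0.41, 0.36 and 0.12 in newborns 1, 10 and 15, and those of the lower genes −0.48, −0.38 and −0.08.

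Along run 1 these genes moved before birth as well. The higher genes had medians of −0.25 to −0.23 at F25, −0.26 to −0.17 at F27 and −0.18 to −0.14 at F28 relative to F29, and the lower genes 0.26 to 0.30, 0.19 to 0.33 and 0.13 to 0.20. The F28 animals 2 and 7 were sequenced in both runs, so their F28 values in run 1 are not separate from the choice of genes. At T35 the higher genes stood at 0.18 to 0.27 and the lower genes at −0.29 to −0.05, in each case between F29 and newborns 1 and 10.

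**Figure D5:**
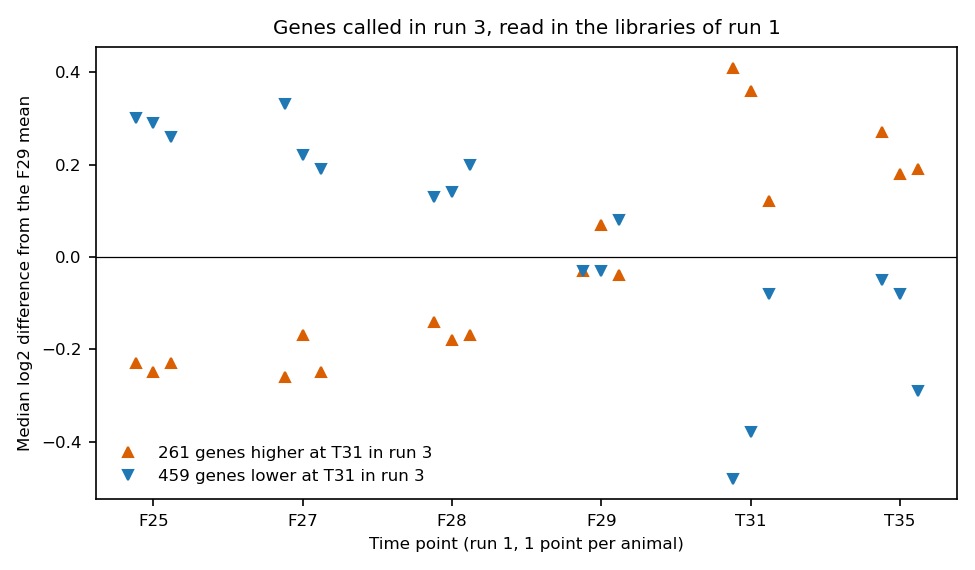
Median log2 difference from the F29 mean in each run 1 animal, over the genes called higher (upward triangles, 261 genes) or lower (downward triangles, 459 genes) at T31 than at F28 in run 3. Newborns 1 and 10 lie farthest from F29 at T31 (0.41 and 0.36, −0.48 and −0.38), and newborn 15 (0.12 and −0.08) lies close to it.

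The lists of both runs overlapped in part. Among 13924 genes tested in both, 42 were called higher without animal 15 in run 1 and in run 3, which is 18.2% of the 231 and 16.1% of the 261. The run 3 list made up 1.87% of the genes tested in both. The lower lists shared 38 genes, 26% of the 146 and 8.28% of the 459, where the run 3 list made up 3.3% of the genes tested in both. No gene was higher in run 1 and lower in run 3, and 1 was lower in run 1 and higher in run 3. Animal 15 was in neither fit, but the F29 animals that it is read against helped to choose the run 1 genes. Its values here are therefore a description. In animal 15, 29 of the 42 shared higher genes lay above the F29 mean, with a median of 0.22. Of the 38 shared lower genes, 27 lay below it, with a median of −0.20. Of all 13924 genes, 7111 lay above and 6813 below it in animal 15. In the F28 animals of run 1, of which 2 and 7 were also the F28 animals of run 3, 14 to 20 of the 42 lay above and 12 to 16 of the 38 below. Over all genes these counts were 6988 to 7242 and 6682 to 6936. In the T35 animals of run 1, 36 to 38 of the 42 were above the F29 mean, with medians of 0.65 to 0.90, and 27 to 33 of the 38 were below it, with medians of −0.76 to −0.40. Over all genes the T35 counts were 7120 to 7337 above and 6587 to 6804 below. The T35 values are a description too, since the F29 animals helped to choose the genes.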

How the data were processed

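Lung RNA was sequenced with QuantSeq 3′ libraries in 3 runs. The authors removed adapters (BBduk), mapped to the OryCun2.0 build (STAR) and made counts per Ensembl gene (HTSeq), with an added step for 3′ UTR reads that the annotation lacks. Versions, and whether the deposited counts include those added reads, are not given in the sources used here. The deposited table holds whole-number counts without normalization, and 0 of its columns were left unmapped.

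The counts of the 18 run 1 libraries (6 time points, 12 residual degrees of freedom) were fitted together in edgeR 4.0.16 (R 4.3.3) with TMM factors and quasi-likelihood tests, and p-values were adjusted by Benjamini-Hochberg over all genes tested. Genes needed 0.5 CPM (2.89 to 3.69 reads) in 3 libraries. Run 3 (24 libraries) was fitted alone. Log2 CPM for distances used a prior count of 2. Limma 3.58.1 and DESeq2 1.42.0 were alternatives, and the steps were tested on simulated data. Each animal is 1 replicate. The SEs and edgeR p-values rest on the spread within time points, pooled over all libraries fitted together, not on T31 and the fetal group alone.

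The rule for named genes was, with no symbols, 2 identifiers that rose and 2 that fell. With only 1 gene called lower, the other was chosen after its values were seen. The members and lists were chosen with earlier results of these data known. The lists of gene symbols that had been planned were not used, since 0 of 29587 identifiers matched a symbol in the RefSeq table (mOryCun1.1).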

Additional observations from a re-analysis of the deposited data

How the results depend on the processing

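The 6 calls between T31 and F29 depended on the fit. The count was 46 (32 higher, 14 lower) with no filter on low counts, 138 (88 and 50) by DESeq2, 3 by limma-voom, which the study used, and 47 (33 and 14) when 36 animals of runs 1 and 3 were fitted with a term for the run. Fitting only the 6 libraries gave 0, with 1468 genes at an unadjusted p under 0.05. RLE factors gave 6, a minimum of 10 counts 4, and the adjusted p without the fold threshold 7. Leaving out 1 animal gave 0 to 379, the latter without T31 animal 15. The counts of 0 came without each F29 animal (1579, 1733 and 1688 genes at an unadjusted p under 0.05 without animals 2, 7 and 11) and without T31 animal 10 (1723), by edgeR. The 379 calls without animal 15 ranged from 334 to 490 under RLE, both filters, voom and DESeq2, alternatives added after the data were seen, and were 203 when only the 5 libraries were fitted. The 727 calls of run 3 became 53 when only its 5 libraries were fitted and ranged from 412 to 1106 when 1 animal was left out, the highest without T31 animal 18. Under the other settings they ran from 679 to 852. No direction of a named gene reversed under any alternative run. The named genes' calls weakened under 24 of their alternatives. The cause of these changes was not tested, and some of the fits held fewer samples. Mean distances to F29 kept the order of animals 15, 10 and 1 under RLE, no filter and a minimum of 10 counts. No paired analysis was possible, because each lung was taken once and the study describes each pup as from a different dam. With 3 animals a side, and a median of 6566134 counts in a library, genes near the filter of 0.5 CPM rest on 2.89 to 3.69 reads.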
